A study of Homo sapiens with 8 samples.

Results

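The genes described here encode the proteins of the cytosolic ribosome, and they were found by symbol: RPL or RPS and a number with at most a short suffix, RPLP0, RPLP1, RPLP2 and RPSA, leaving out pseudogenes and the RPS6K kinases. Of 19775 genes that have a probe set of their own on the array, 61 are such genes, and they carry 122 probe sets. They comprise 30 genes of the large subunit, 20 of the small subunit, the stalk genes RPLP1 and RPLP2, and 9 paralogs, which are second copies of a ribosomal protein gene. Where a gene has several probe sets, the one with the highest mean over the arrays stands for it. RPLP0 and RPSA were not analysed here. Another 15 genes, among them RPL5, RPL10 and RPS3A, have only probe sets that carry a further gene symbol, and were not analysed gene by gene. mRNA was measured on Affymetrix U133 Plus 2.0 arrays in the prostate cancer lines LNCaP, from a lymph node metastasis, and 22Rv1, from the CWR22 xenograft. Each line was left untreated, or was kept for 4 hours in 10 mM caffeine, used as an inhibitor of nonsense-mediated mRNA decay (NMD). After that caffeine step, other plates received 2 μg/ml actinomycin D, a blocker of transcription, for a second step that ended at 8 hours, with 10 mM caffeine kept on or with caffeine withdrawn. Every combination of line and treatment is 1 array of 1 plate, 8 arrays in all, so a difference within a line has no replicate, and the lines serve as the only replicates of a treatment.

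A ribosome consists of a small subunit, which reads the mRNA, and a large subunit, which joins the amino acids, and each is built from ribosomal RNA and a set of proteins needed in equal amounts. Most mRNAs of ribosomal proteins begin with a 5′ terminal oligopyrimidine (TOP) tract, a cytosine followed by further pyrimidines, through which their translation is controlled together, and they rank among the most abundant and most stable mRNAs of a growing cell. NMD, which degrades mRNAs with a premature stop codon, also removes misspliced forms of some of these genes, and RPL5, RPL11, RPL23 and RPS7 bind the p53 regulator MDM2 when ribosome production is disturbed, for example by actinomycin D.

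The 5′ ends annotated for these genes are shown because the TOP tract is the feature that most of the members share and that their selection by name did not use. RefSeq start windows of GRCh38.p14 were used for 53 of the 61 genes, and not every chromosome was included. A cytosine at the start followed by at least 4 further C or T on the transcribed strand was present in 34 of 46 members that are not paralogs (73.9%), in 2 of 7 paralogs (28.6%), and in 1404 of all 27305 genes with such a window (5.14%). With a start allowed up to 5 bases to either side, the shares were 81.1% of the 53 members and 25.2% of all genes. In the windows below, 15 bases lie on each side of the annotated start, and capitals mark the run of C and T that begins with a C at the start itself.
RPS19 (chr19:41860240-41860269, plus strand): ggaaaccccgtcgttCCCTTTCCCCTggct
RPL11 (chr1:23691791-23691820, plus strand): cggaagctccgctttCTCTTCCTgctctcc
RPL37A (chr2:216498829-216498858, plus strand): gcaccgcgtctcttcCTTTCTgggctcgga
RPS24 (chr10:78033848-78033877, plus strand): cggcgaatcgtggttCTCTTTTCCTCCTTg
RPL22 (chr1:6199581-6199610, minus strand): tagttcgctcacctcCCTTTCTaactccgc
RPL22L1 (chr3:170870181-170870210, minus strand): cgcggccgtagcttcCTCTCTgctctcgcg
RPS27 (chr1:153990747-153990776, plus strand): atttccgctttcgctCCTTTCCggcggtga
RPS27L (chr15:63157463-63157492, minus strand): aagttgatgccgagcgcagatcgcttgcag
RPL36A (chrX:101390996-101391025, plus strand): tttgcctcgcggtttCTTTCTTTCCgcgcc
RPL36AL (chr14:49620612-49620641, minus strand): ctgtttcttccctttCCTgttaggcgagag
RPL26L1 (chr5:172958714-172958743, plus strand): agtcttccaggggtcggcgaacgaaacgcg
RPL10L (chr14:46651767-46651796, minus strand): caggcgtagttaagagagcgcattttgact
RPL22 and its paralog RPL22L1 both start with such a run. RPS27 does and its paralog RPS27L does not, and the run of RPL36AL, at 3 bases, is shorter than that of RPL36A. In the RPL36AL window C and T also lie directly before the start, so a run counts there when the start may shift by 5 bases. The windows of RPL26L1 and RPL10L, which is an intronless copy known from testis, hold no run at the start.

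The deposited values are log2 signals that run up to 15.66 on every array, with a median over all probe sets of 2.75. A mean of 4 over the 8 arrays is the floor used here, below which a signal is taken as not measured. Of the 61 genes, 58 lay above it and were tested, and 49 had means of at least 13. Of the 61, 51 were among the 546 highest probe sets on the array. Over the 49 genes with means of at least 13, the distance between the highest and the lowest of the 8 arrays had a median of 0.30 and reached at most 0.68. RPL41 and RPS15 had a single value on all 4 LNCaP arrays, 15.44 and 15.43. The 3 genes below the floor were RPL36A, at a mean of 3.84, the stalk gene RPLP2, at 2.52, and RPL3L, a paralog known from heart and skeletal muscle, at 2.28. RPL27A, a large subunit protein, rests on its sole probe set, at a mean of 6.95. The prostate markers KLK3, KLK2, HOXB13, TMPRSS2, FOLH1, KRT8 and KRT18 were above the floor on all 8 arrays, as were VIM and COL1A1, listed as markers of other cell types, while COL3A1, PTPRC and HBB were below it. Probe sets for 18S ribosomal RNA had a mean of 11.7 on 1 array, LNCaP in actinomycin D and caffeine, and of 4.09 to 7.08 elsewhere.

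No ribosomal protein gene passed the test for a response to caffeine. limma was fitted across all 21453 probe sets above the floor with a term for cell line. It called 0 of 58 members at an adjusted p under 0.05, against 0.0466% of all probe sets. An unadjusted p under 0.05 was found for 0 members and for 3794 of all probe sets. The lowest adjusted p among the members was 0.35. The median difference (caffeine minus untreated) was 0.02 over the members and -0.03 over all probe sets, with 29 large subunit genes at a median of 0.02 and 20 small subunit genes at 0.03. For the 49 genes with high signals the estimates lay within 0.17 of 0, and their 95% intervals between -0.60 and 0.64. In simulated data for this comparison, limma recovered 0 of 200 changes of 0.5 and of 1 log2 unit and 170 of 200 changes of 2. The simulation changed 200 of 21453 probe sets, drawn from all levels of signal. The median standard error was 0.19 for the members and 0.27 for all probe sets, so the simulation does not give the limit for the members.

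Within single lines, 2 of 58 members differed by at least 0.5 after caffeine in LNCaP, where 32.4% of all probe sets did, and 0 of 58 in 22Rv1, where 39.6% did. RPL27A had 8.11 untreated and 6.65 with caffeine in LNCaP, against 6.81 and 6.62 in 22Rv1, for a limma estimate of -0.82 (standard error 0.40, adjusted p 0.35). The difference rests on the untreated LNCaP array, since the other 7 arrays gave 6.62 to 7.11. RPL10L had 6.89 untreated and 7.51 with caffeine in LNCaP, against 4.22 and 3.86 in 22Rv1. RPL7L1, RPL22L1 and RPS27L followed RPL27A at the low end, with estimates of -0.34, -0.28 and -0.25, and RPS9, RPL24 and RPL10L stood at the high end, with 0.17, 0.13 and 0.13. None of these passed the test.

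Other genes of high signal give a second background. Of 231 probe sets of other genes with means of at least 13, 16 (6.93%) differed by at least 0.5 after caffeine in LNCaP and 17 (7.36%) in 22Rv1, against 0 of 49 members in either line. The levels are not matched: the median of the means was 14.77 for the 49 members and 13.79 for the 231, and the highest value on the arrays is 15.66. Signals this near the top of the scale may show less of a difference than was there, which was not tested.

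**Figure D1:**
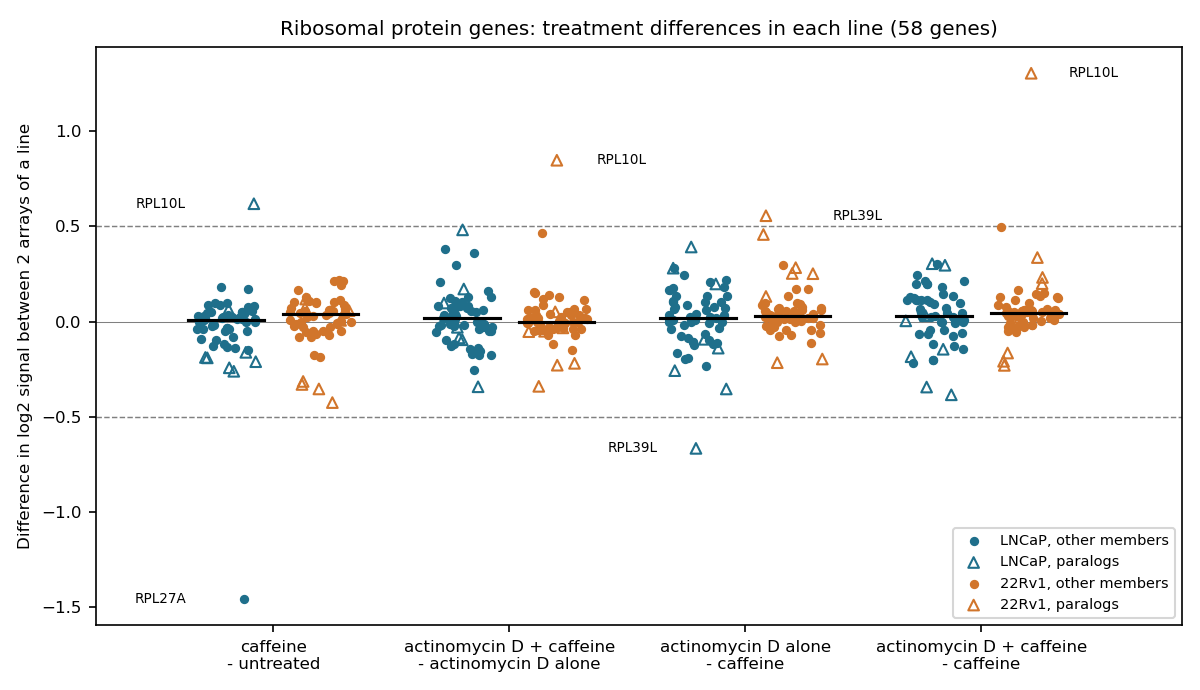
Difference in log2 signal between 2 arrays of the same line (vertical axis) for the 58 tested ribosomal protein genes in 4 comparisons (horizontal axis), LNCaP in blue and 22Rv1 in orange, triangles for paralogs, black bars for medians and dashed lines at a difference of 0.5 either way. Most genes lie close to 0 in every comparison, and the genes past the dashed lines are RPL10L, RPL27A and RPL39L.

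Caffeine kept on during the block of transcription, the step meant to separate decay by NMD from new synthesis, gave no call either. limma called 0 of 58 members for actinomycin D with caffeine against actinomycin D alone, as it called 0% of all probe sets, with 0 members and 1712 of all probe sets at an unadjusted p under 0.05. The members' median was 0.01 and that of all probe sets -0.004. A difference of at least 0.5 was seen for 0 of 58 members in LNCaP (32.1% of all probe sets) and for 1 of 58 in 22Rv1 (21.5%), which was RPL10L with 4.32 under actinomycin D alone and 5.17 with caffeine. Its signals in LNCaP were 7.16 and 7.13. RPS28, RPL38, RPL27A and RPL36 came next, with estimates of 0.18, 0.18, 0.17 and 0.16. In LNCaP, RPS28, RPL38 and RPL36 differed by 0.30, 0.38 and 0.36, against 0.06, -0.02 and -0.03 in 22Rv1. RPL27A went the other way, with -0.13 in LNCaP and 0.47 in 22Rv1. The LNCaP array with caffeine behind these values is the one with the high 18S signal. Without it, the members' median was 0.01. RPL22L1 was lowest, at -0.21 (standard error 0.20, adjusted p 0.86). RPL36A, untested because of its low mean, had 3.77 and 4.75 on the LNCaP arrays.

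RPL3, RPL10A and RPL12 are textbook cases of ribosomal protein genes whose splice forms with a premature stop are cleared by NMD. Whether their representative probe sets read such forms is not given in the sources used here. RPL10A had signals of 14.59, 14.45, 14.57 and 14.46 in LNCaP and 14.40, 14.44, 14.61 and 14.47 in 22Rv1, in the order untreated, caffeine, actinomycin D with caffeine, and actinomycin D alone, an order kept throughout. RPL3 had 14.90, 14.92, 15.06 and 14.98 in LNCaP and 15.01, 14.94, 15.003 and 15.04 in 22Rv1. Differences of caffeine against no caffeine in the second step were 0.12 for RPL10A, 0.02 for RPL3 and 0.02 for RPL12, all with standard errors of about 0.19. Among the 11 members that carry a small nucleolar RNA in an intron, 10 were tested and 0 were called in any treatment comparison, with medians of 0.02 for caffeine and 0.03 for caffeine in the second step.

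After actinomycin D with caffeine withdrawn, 399 of all probe sets were lower and 102 higher relative to the rest (2.34% called in all). Of the members 0 of 58 were called, which is near that share and does not set them apart. Among 345 probe sets with means of at least 13, 2 were called. limma gave an unadjusted p under 0.05 for 0 members and for 4663 of all 21453 probe sets, and the lowest adjusted p among the members was 0.50. The median was 0.04 over the members and 0.05 over all probe sets. The 49 genes with high signals had estimates within 0.18 of 0 and 95% intervals between -0.59 and 0.66. In each line 1 of 58 members differed by at least 0.5, where 41.8% of all probe sets did in LNCaP and 39.4% in 22Rv1. It was RPL39L in both, a paralog of RPL39 known from testis and some tumours, with 3.14 and 2.47 in LNCaP, below the floor on both arrays, and 7.85 and 8.41 in 22Rv1. RPS27L, a p53-inducible paralog of RPS27, had the highest estimate, 0.27 (standard error 0.21, adjusted p 0.50), with 0.28 in LNCaP and 0.25 in 22Rv1. RPS4Y1, RPL19 and RPS25 followed at 0.22, 0.18 and 0.16, and RPL7L1, RPS28 and RPS12 were lowest at -0.17, -0.12 and -0.08. This comparison sets actinomycin D alone, ended at 8 hours, against the caffeine array of 4 hours. It thus holds the withdrawal of caffeine, the longer culture and a change of medium too, and these cannot be told apart in it.

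With caffeine kept on, actinomycin D again gave 0 of 58 calls, and 0% of all probe sets were called, with 0 members and 2628 of all probe sets at an unadjusted p under 0.05. Medians were 0.06 for the members and 0.02 for all. In LNCaP 0 of 58 members and 38.9% of all probe sets differed by at least 0.5, and in 22Rv1 1 of 58 members (RPL10L, with 3.86 and 5.17) and 26.6% of all. After RPL10L, RPL27A had the highest estimate, 0.31, and then RPS9, at 0.19, while RPL22L1, RPL32 and RPL7L1 were lowest, at -0.28, -0.12 and -0.10. Here, too, arrays of 8 hours are set against arrays of 4, so actinomycin D cannot be told apart from the longer culture and the change of medium. The comparisons with actinomycin D use the same caffeine arrays as the caffeine response, so their values are not independent of it.

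RPL11 and RPS7, the MDM2-binding members with a probe set of their own, were not called under actinomycin D. RPL11 had 13.50, 13.53, 13.58 and 13.75 in LNCaP and 13.89, 14.002, 13.99 and 13.98 in 22Rv1. RPS7 had 14.20, 14.28, 14.32 and 14.27 in LNCaP and 14.07, 14.12, 14.07 and 14.05 in 22Rv1. After actinomycin D alone the difference was 0.10 for RPL11 and -0.04 for RPS7, each with a standard error of 0.19. RPLP1, an acidic protein of the stalk that recruits elongation factors, differed by 0.08 (standard error 0.19).

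These differences are relative to the other mRNAs on an array, since all arrays were normalized to the same distribution, and thus a change common to every mRNA would be hidden. Probe sets for added poly-A control RNAs had means of 7.64 to 8.26 on the 4 actinomycin D arrays and 6.45 to 7.36 on the other 4. With arrays scaled to equal poly-A means, all 58 members were called lower after actinomycin D alone, as were 82% of all probe sets, with a median of -1.34 for the members and -1.34 for all. With caffeine kept on, 48 members were called lower and 49.3% of all probe sets, with medians of -0.91 and -0.95. The direction of the members after actinomycin D thus depends on the scaling, which moved the median of all probe sets along with theirs.

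Calls among the members were made between the lines. limma, with treatment as a block, called 10 of 58 members (17.2%) between LNCaP and 22Rv1, where 53.6% of all probe sets were called. Of the 10, 7 were higher in LNCaP, against 27.4% of all probe sets, and 3 lower, against 26.3%. With poly-A scaling the split was 26 higher (41.2% of all) and 2 lower (14.9% of all). The median difference (LNCaP minus 22Rv1) was 0.12 for the members and 0.02 for all probe sets. On the untreated arrays alone, 9 of 58 members differed by at least 0.5, and 60.9% of all probe sets. The 4 arrays of a line are plates of that line under different treatments, and these p-values measure only the spread between those arrays, which may be technical, not that between independent cultures.

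At the main settings the calls fell mostly on the paralogs: 7 of the 8 tested paralogs were called and 3 of the 50 other members. Of all probe sets 53.6% were called, and 24.9% of those with means of at least 13. The tested paralogs had means under 13 and 49 of the 50 others had at least 13, so paralogs and signal level cannot be told apart here. The split also depends on the variance prior: with a variance trend 29 of 58 members were called, most of them not paralogs. RPL39L gave 3.33, 3.14, 2.95 and 2.47 in LNCaP, below the floor throughout, and 7.84, 7.85, 8.19 and 8.41 in 22Rv1, a difference of -5.10 (standard error 0.26, adjusted p 5.65e-05) that includes unmeasured signals. RPS4Y1, the Y-linked copy of RPS4X, had 10.45, 10.26, 10.11 and 10.45 in LNCaP and 13.39, 13.51, 13.71 and 13.76 in 22Rv1, a difference of -3.28 (standard error 0.16, adjusted p 5.00e-05). RPS4X itself differed by 0.04. RPL10L had 6.89, 7.51, 7.13 and 7.16 in LNCaP and 4.22, 3.86, 5.17 and 4.32 in 22Rv1, a difference of 2.78 (standard error 0.28, adjusted p 0.00062). In all of these the arrays of one line lay apart from those of the other, which adds no support, since they were named for their large called differences.

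RPL22L1, whose product can take the place of RPL22 in the ribosome and in splicing control, had 13.58, 13.34, 12.997 and 13.08 in LNCaP and 12.35, 12.03, 11.82 and 12.16 in 22Rv1. It was higher in LNCaP by 1.16 (standard error 0.14, adjusted p 0.00127). RPL36AL, an autosomal copy of RPL36A, was higher in LNCaP by 1.15 and RPL26L1, a copy of RPL26, by 1.13, with means of 12.80 ± 0.17 (SD, n = 4) and 12.19 ± 0.05 in LNCaP against 11.65 ± 0.10 and 11.06 ± 0.17 in 22Rv1. RPS27L was higher by 0.74, at 13.10 ± 0.14 against 12.37 ± 0.17, and its parent gene RPS27 differed by -0.09. RPL7L1, the tested paralog that was not called, differed by 0.22 (95% interval -0.13 to 0.58).

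**Figure D2:**
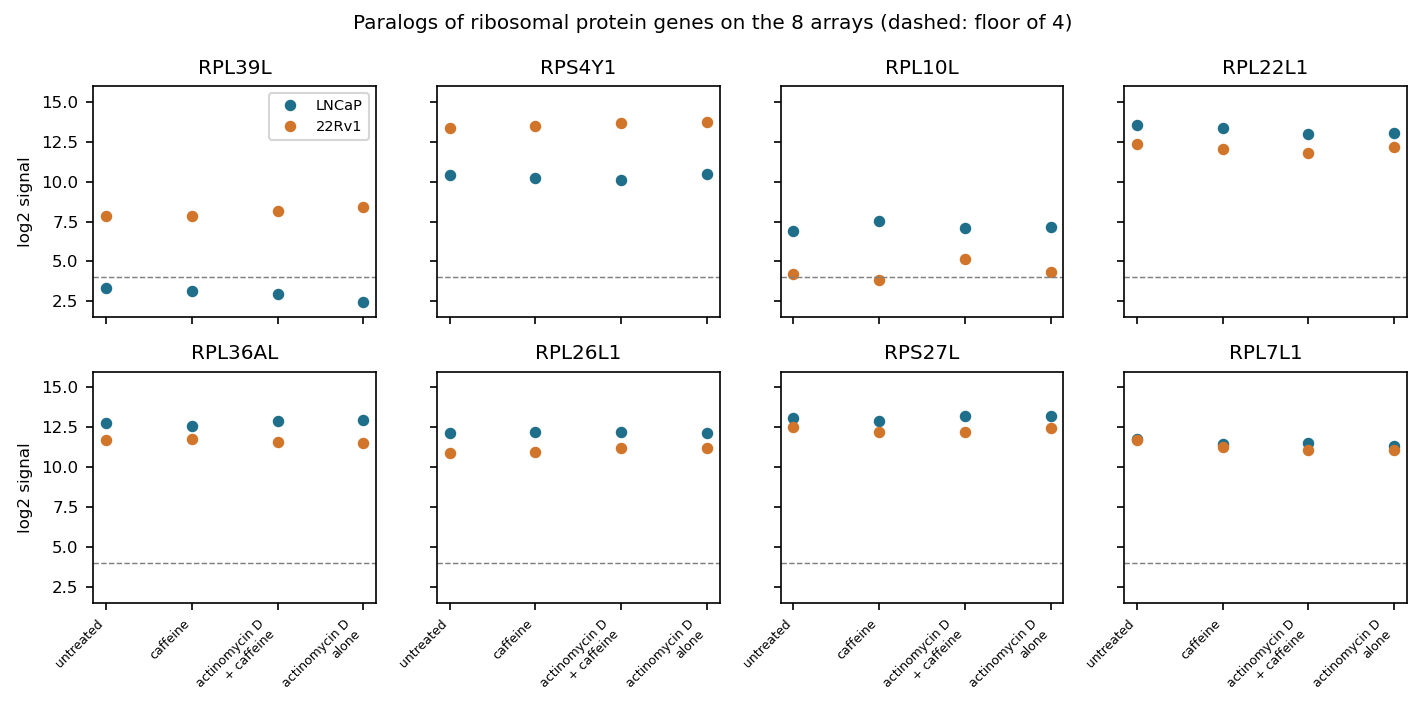
log2 signal (vertical axis) of the 8 tested paralogs on the 8 arrays, by treatment (horizontal axis), LNCaP in blue and 22Rv1 in orange, each point 1 array. RPL39L and RPS4Y1 are higher in 22Rv1 and RPL10L, RPL22L1, RPL36AL, RPL26L1 and RPS27L higher in LNCaP under every treatment, and RPL39L lies below the floor of 4 (dashed) on all LNCaP arrays.

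Among the ribosomal protein genes that are not paralogs, RPS19 was called lower in LNCaP and RPL37 and RPL35A higher. RPS19, a small subunit protein mutated in Diamond-Blackfan anaemia, had 14.48, 14.53, 14.68 and 14.71 in LNCaP and 14.97, 15.07, 15.09 and 15.14 in 22Rv1. Its difference was -0.46 (standard error 0.13, adjusted p 0.0271), and a second probe set of similar signal gave -0.47, but with poly-A scaling it was -0.03 and not called. RPL35A, mutated in the same disease, differed by 0.43 (adjusted p 0.0406), with LNCaP arrays at 14.46, 14.45, 14.63 and 14.47 and 22Rv1 arrays at 13.95, 14.04, 14.09 and 14.21. RPL37 differed by 0.43 (adjusted p 0.0372), at 14.59 ± 0.09 (SD, n = 4) against 14.16 ± 0.07. The groups do not overlap for any of these, which were named because they were called, and the share of all probe sets without overlap was not counted. All 3 calls were lost when any 1 of the 8 arrays was left out, while the 7 paralogs stayed called. RPL11, at -0.38 (adjusted p 0.0567), lay just outside the threshold. Of the 231 probe sets of other genes with means of at least 13, 35.5% were called between the lines, against 3 of the 49 members above that mean (6.12%), with the same gap in level.

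**Figure D3:**
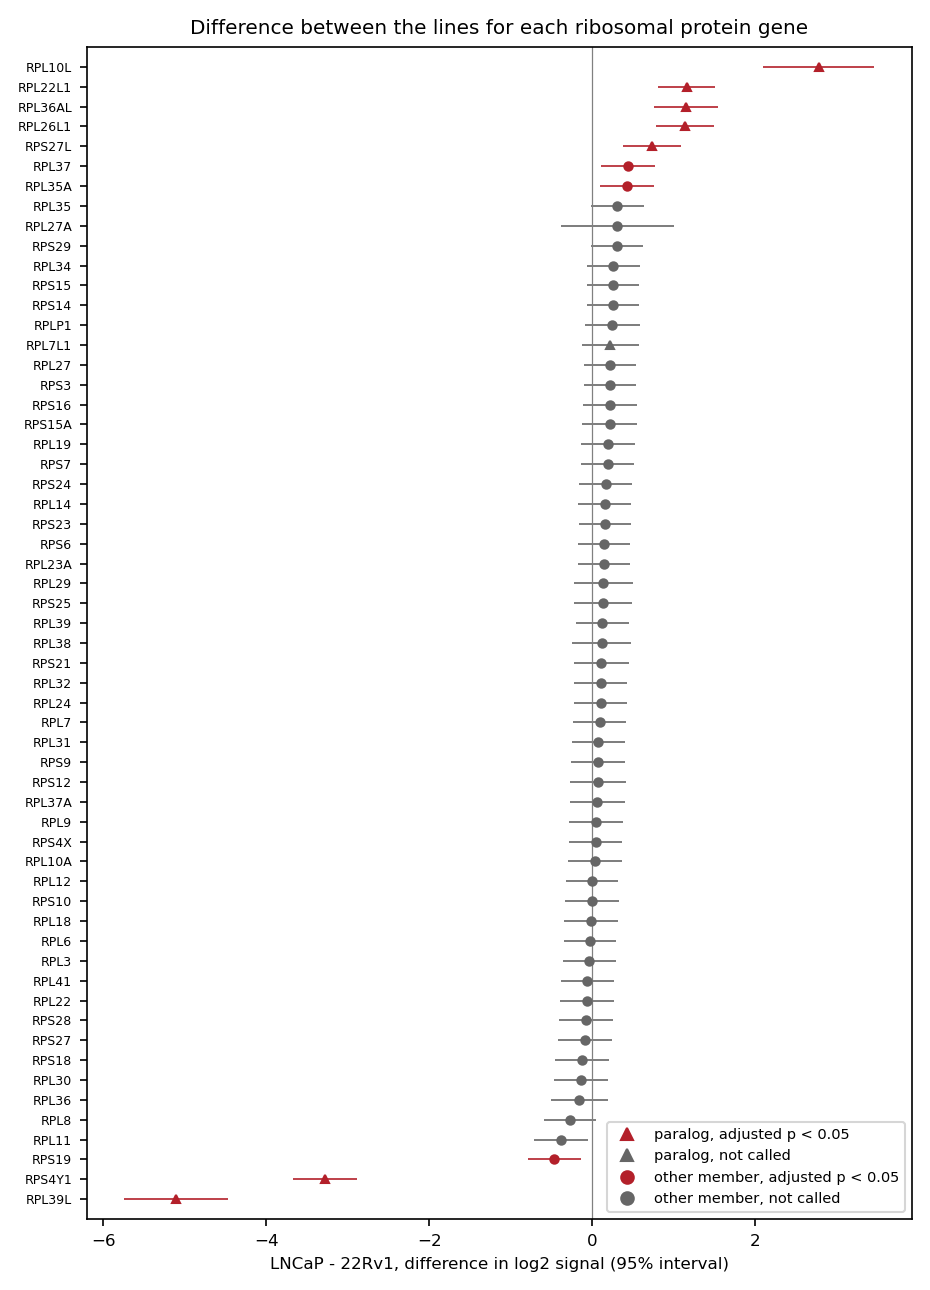
Difference between LNCaP and 22Rv1 in log2 signal over the 4 treatments (horizontal axis) with its 95% interval for each of the 58 tested ribosomal protein genes (vertical axis), triangles for paralogs and red for an adjusted p under 0.05. Estimates of the genes that are not paralogs run from -0.46 to 0.43, and those of paralogs from -5.10 to 2.78.

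Other probe sets of the same genes did not all follow the representative one. For 28 genes, 49 further probe sets had means above the floor. The 19 of them with means of at least 13 had treatment estimates between -0.36 and 0.23, with 0 calls, and 1 call between the lines, the probe set of RPS19. Within a line, further probe sets of RPL24 and RPL7 differed by -0.54 and -0.61 for caffeine in the second step in LNCaP, where the representative ones had 0.08 and -0.04. That of RPL7 also differed by -0.68 for actinomycin D with caffeine against caffeine. All 3 values use the LNCaP array with the high 18S signal, whose part in them was not tested. The 30 with lower means gave larger differences. Which part of a transcript they read is not given in the sources used here.

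The largest treatment difference was that of RPL37A, of which a lower probe set gave 6.93 untreated and 6.68 with caffeine in LNCaP, then 3.48 and 3.07 on the arrays with actinomycin D. In 22Rv1 it gave 6.92, 7.63, 3.09 and 2.86, so that all 4 actinomycin D arrays lay below the floor. The change after actinomycin D alone was -4.19 (standard error 0.35, adjusted p 0.0263), the single call among the 49 in the treatment comparisons, and with caffeine kept on it was -3.87 (adjusted p 0.107). Within the lines the change was -3.61 in LNCaP and -4.78 in 22Rv1. Whether the call rests on a single array cannot be decided, since leaving out an array leaves 1 treatment with 1 array. The representative probe set of RPL37A had 15.25, 15.27, 15.49 and 15.38 in LNCaP and 15.32, 15.29, 15.26 and 15.27 in 22Rv1.

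Probe sets of RPS16 and RPS24 had higher signals with caffeine than without it after actinomycin D in both lines, and did not pass the test. A lower probe set of RPS16 gave 6.12, 6.52, 6.09 and 4.93 in LNCaP and 5.31, 6.18, 6.58 and 4.99 in 22Rv1, a caffeine effect after actinomycin D of 1.37 (standard error 0.33, adjusted p 0.41). RPS24, a gene known for alternative 3′ exons, gave 8.73, 7.25, 8.48 and 7.22 in LNCaP and 7.22, 8.16, 8.11 and 6.12 in 22Rv1 at its lower probe set, an effect of 1.63 (standard error 0.56, adjusted p 0.57). A lower probe set of RPS27L had 6.94 untreated and 5.76 with caffeine in LNCaP and 5.86 and 4.78 in 22Rv1, for an estimate of -1.13 (adjusted p 0.0751), while the representative probe set gave -0.25. A lower probe set of RPL37 went the other way, with 7.50 and 8.81 in LNCaP and 10.95 and 11.37 in 22Rv1. Over the 30 lower probe sets, caffeine estimates ran from -1.27 to 0.87 with a median of -0.02. limma called 0 of them and gave 7 an unadjusted p under 0.05, against 3794 of all 21453 probe sets.

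**Figure D4:**
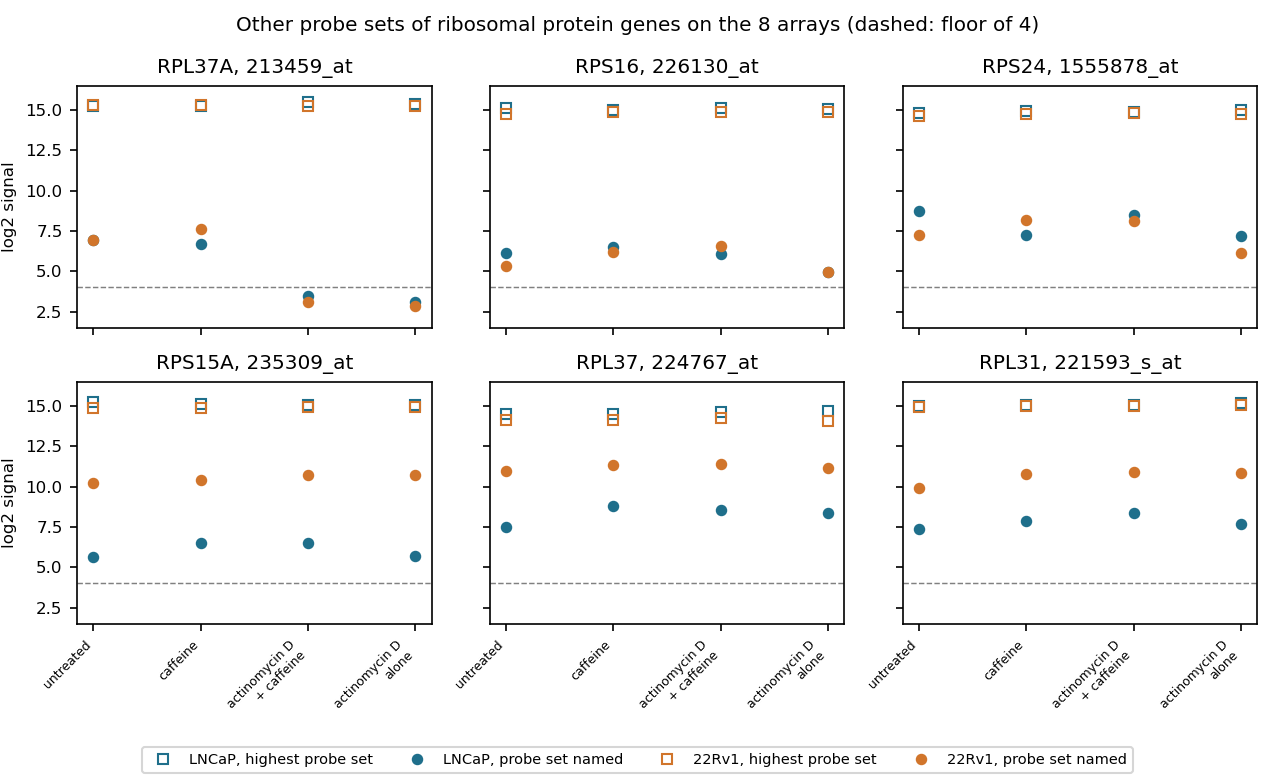
log2 signal (vertical axis) on the 8 arrays by treatment (horizontal axis) for a lower probe set (filled circles, named in the panel) and the highest probe set (open squares) of 6 genes, LNCaP in blue and 22Rv1 in orange, with the floor of 4 dashed. Within a probe set, RPL37A falls below the floor on all actinomycin D arrays, and RPS15A, RPL37 and RPL31 are lower in LNCaP under every treatment. The highest probe set of RPL37 is higher in LNCaP by 0.43.

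Between the lines, 15 of these 30 lower probe sets were called, 3 higher and 12 lower in LNCaP, from 9 genes, where 53.6% of all probe sets were called. RPS15A gave 5.65, 6.505, 6.53 and 5.71 in LNCaP and 10.24, 10.42, 10.75 and 10.73 in 22Rv1, a difference of -4.44 (standard error 0.21, adjusted p 4.74e-05). Probe sets of RPL37 gave -2.92 and -2.75 and one of RPL31 gave -2.80. For RPL37 the direction of all 3 further probe sets is opposite to that of the representative one. RPL35A gave -1.72 and -0.28 at its further probe sets of low signal, and 0.25 (adjusted p 0.17) at one with a mean of 13.77, so that the representative probe set is the only one of each gene called higher in LNCaP. RPL22 differed by -1.55 and -0.91 at 2 further probe sets and by -0.07 at its representative one. RPS23 was higher in LNCaP, by 1.35, as were both further probe sets of RPS27L, by 0.99 and 1.08.

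Genes that build the ribosome or share its controls are given by counts and medians, and no test compared the lists. FAU, which encodes a small subunit protein under another name, gave 0.13 for caffeine and 0.18 after actinomycin D alone. Of 15 other mRNAs known to carry a TOP tract, 0 were called in the treatment comparisons and 1 between the lines, EIF4B, an initiation factor, at -0.56 (adjusted p 0.015). Their medians for caffeine and actinomycin D alone were 0.05 and -0.004. HNRNPA1, a splicing regulator, stood apart from that list with 1.41 for caffeine, -2.14 after actinomycin D alone and 1.87 for caffeine in the second step, at adjusted p of 0.15, 0.0505 and 0.35.

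Of 61 ribosome assembly factors, 0 were called after caffeine, with a median of -0.19 against -0.03 for all probe sets. limma gave an unadjusted p under 0.05 for 13 of the 61, and for 3794 of all 21453 probe sets. IMP3, a part of the U3 ribonucleoprotein that processes the ribosomal RNA precursor, gave -1.57 (adjusted p 0.0805), and RRS1 -1.32 (adjusted p 0.0969). NOB1, the nuclease that finishes 18S rRNA, gave 1.30 for caffeine in the second step (adjusted p 0.30). WDR43, which acts in the making of 18S rRNA, was the 1 assembly factor called after actinomycin D alone, with -1.20 (adjusted p 0.0488). Among 15 genes of RNA polymerase I, TTF1, its termination factor, was the 1 called after actinomycin D alone, with -1.67 (adjusted p 0.0487), and TAF1D gave -1.88 (adjusted p 0.0625). Whether these calls rest on a single array cannot be decided either, for the same reason as for RPL37A. Between the lines, assembly factors were higher in LNCaP for 30 of 61 and lower for 5, with a median of 0.47, where 27.4% of all probe sets were higher and 26.3% lower. The 57.4% called in all is near the 53.6% of all probe sets. Of 75 mitochondrial ribosomal protein genes, 44 were higher in LNCaP and 3 lower (62.7% called), with a median of 0.71. Cytosolic members other than paralogs had 2 higher and 1 lower of 50 with a median of 0.11. The mitochondrial genes had means of at most 12.56 (MRPS15), and 49 of those 50 members had at least 13. The kind of ribosome and the signal level thus cannot be told apart here.

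**Figure D5:**
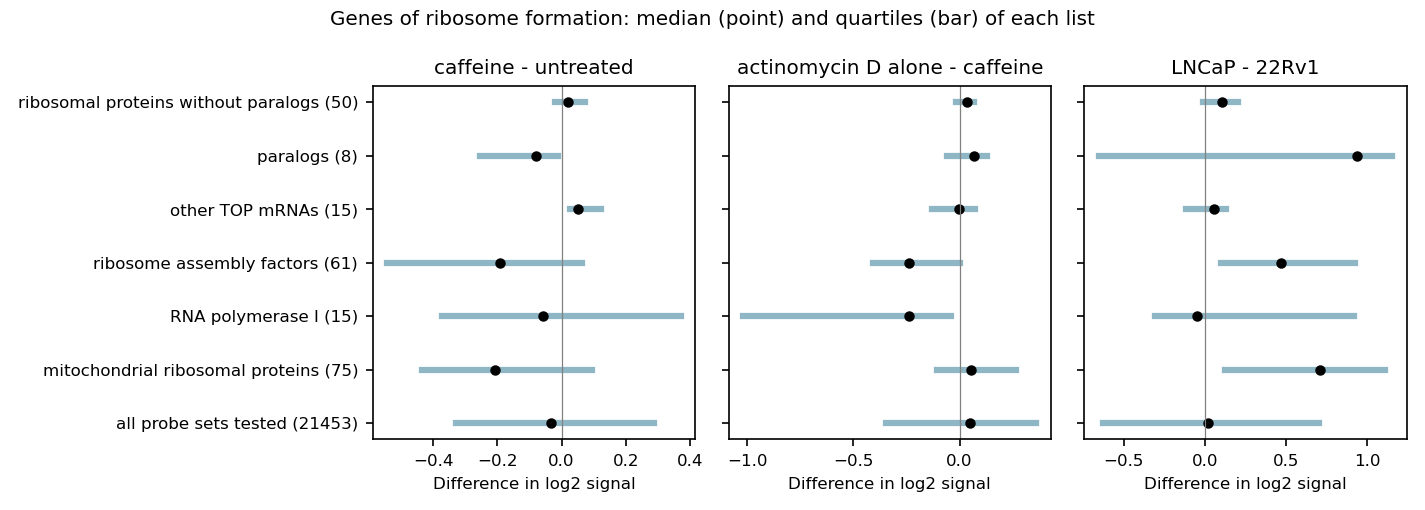
Median (point) and quartiles (bar) of the difference in log2 signal (horizontal axis) for lists of genes (vertical axis, number tested in brackets) in 3 comparisons. Ribosomal protein genes without paralogs lie close to 0 with narrow bars, and assembly factors and mitochondrial ribosomal proteins lie to the right of 0 between the lines.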

How the data were processed

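The authors deposited log2 signals of 8 arrays that they background corrected, quantile normalized together and summarised per probe set with gcRMA, and these were used as deposited. RMA and GCRMA are the tools in the submitters' processing notes, which give no versions. Quantile normalization gives all arrays 1 distribution, so levels are relative. Of 54675 probe sets, 41097 have 1 gene symbol in the platform annotation, 1801 have several and 11777 none, and 41043 of the first matched a RefSeq gene of GRCh38.p14 by gene ID. Probe sets with several symbols were left out of the members.

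limma 3.58.1 (lmFit and eBayes, R 4.3.3) was fitted to the 21453 probe sets whose mean reached 4, with treatment and cell line as terms (residual degrees of freedom 3, prior 2.93). Benjamini-Hochberg adjustment ran over all of them, at a threshold of 0.05. A difference within a line was counted from 0.5, with no test. The number of arrays limits the precision. In simulated data for the line difference, with 200 of 21453 probe sets changed, 0 of 200 changes of 1 and 197 of 200 of 2 log2 units were recovered. In the measured data 53.6% of all probe sets were called between the lines, so the adjusted threshold was less strict there. A member difference of 0.43 was called, and the simulation does not give the limit of that comparison.

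The members and lists were chosen with earlier results of these data known. The genes named are, for each comparison, the 5 highest and 5 lowest members and those called, all paralogs, stalk genes and genes linked to NMD or MDM2, members with a further probe set that lies over 1 away from the representative in a line, and the 2 largest of each other list; only some are given with values. Start windows hold 250 bases before and 50 after a start; a gene with several counts if any of them has the run. Alternatives were other filters and variance priors, no block, poly-A scaling, other probe sets and arrays left out. Tables and plots were made with python 3.11.15, numpy 2.4.6, pandas 2.3.3, scipy 1.17.1 and matplotlib 3.10.9.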

Additional observations from a re-analysis of the deposited data

Results flagged for a closer look

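RPL39L moved in opposite directions after actinomycin D alone, by -0.67 in LNCaP, where both signals lay below the floor of 4, and by 0.56 in 22Rv1; the difference between the lines in this response was not tested. RPL35A had 14.63 in LNCaP under actinomycin D and caffeine, farther from the other 3 LNCaP arrays (14.45 to 14.47) than Dixon's 95% limit allows. Dixon's limit was applied 18 times, to called members other than RPS4Y1 in each line, and chance passes it in about 1 of 20 groups of replicates. The arrays of a line are different treatments and not replicates, so that rate may not hold here.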

How the results depend on the processing

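The 0 calls among members in the treatment comparisons held under the other filters and variance priors. With a variance trend, 113 of all 21453 probe sets were called higher and 23 lower for caffeine, and 0 for actinomycin D with caffeine. With no block, limma called 0 of all probe sets in each treatment comparison, so 0 members there is no support. With an array left out, 1 treatment has 1 array, so those fits cannot decide the question. Scaling on the poly-A controls, which shifts all probe sets of an array together, moved the medians to 0.255 for caffeine, 0.422 for caffeine in the second step, -1.34 and -0.915 after actinomycin D alone and with caffeine, where 58 and 48 members were called, and 0.559 between the lines. Averaging the probe sets of each gene gave 1 call after actinomycin D alone. With no _x_at probe sets, the medians were 0 for caffeine in the second step and 0.0481 after actinomycin D alone, where members of at least 13 had 0.03. The probe sets of several symbols, added after seeing the data, had medians of -0.012 for caffeine in the second step, 0.0405 for actinomycin D with caffeine and 0.0586 between the lines.

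Leaving out 1 array each gave medians of -0.0191 to 0.0486 for caffeine, 0.00505 to 0.0144 for caffeine in the second step, 0.00853 to 0.0387 after actinomycin D alone, 0.0288 to 0.061 with caffeine, and 0.089 to 0.134 between the lines, where calls went from 7 higher and 3 lower to 5 and 2 in every case. Calls between the lines, higher and lower, were 18 and 5 with no filter, 24 and 5 with a variance trend, and 26 higher with poly-A scaling. They were 14 higher at means from 10 up, 5 lower with no _x_at probe sets and 9 lower with probe sets averaged by gene. Without paralogs, and for members of at least 13, they were 2 and 1, and for probe sets of several symbols 3 higher. Of 953 further values of named members, 835 kept direction and call. RPL35A turned to -0.27 with its probe sets averaged and to -0.28 and -1.72 at further probe sets of low signal, against 0.25 at one of high signal, and RPL37 to -1.43 averaged and to -2.75, -0.47 and -2.92; the cause was not tested. No paired analysis was possible by replicate number, because each group has 1 array and all share a single number; treatments were instead paired within a line through the cell line term of the model.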
